A study of Caenorhabditis elegans with 8 samples.

Results

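The *ceh* genes (*C. elegans* homeobox) are the worm genes named for a homeodomain, the DNA-binding domain shared by a large class of developmental transcription factors. They were taken here as every gene whose symbol is *ceh-* and a number in a RefSeq gene table of assembly WBcel235, apart from *ceh-6*, *ceh-13* and *ceh-22*. Of 62 such genes, 58 were paired with a transcript in the deposited files, as 73 of 50606 RefSeq transcripts. The genes *ceh-16*, *ceh-21*, *ceh-83* and *ceh-85* were not matched by name and are not analysed here. The symbol is a naming convention and not a lineage, so the set crosses several homeodomain classes.

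A homeodomain contacts DNA with a recognition helix in the major groove, and most homeodomain proteins gain specificity from partner proteins. In *C. elegans*, combinations of homeodomain factors specify individual neuron classes as terminal selectors, which switch on the genes that define a mature neuron. Other members act earlier, in the mesoderm, the pharynx and the head, or in the count of X chromosomes that sets sex. ZTF-11 is the worm homolog of the Myt1 zinc finger proteins, which in vertebrates repress non-neuronal genes during neurogenesis.

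The comparison was between embryos of mothers fed with bacteria that made double-stranded RNA against *ztf-11* (*ztf-11* KD, 4 libraries) and embryos of mothers fed with the empty vector L4440 (control, 4 libraries). Both groups were of strain TV23837, which carries the floxed *ztf-11::gfp* allele *wy1100*, the RNAi-sensitizing mutation *eri-1(mg366)* and the transgenes *oxIs322* and *ynIs49*, so that neither group was wild type. The mothers fed from synchronized L1 for 64 hr at 20°C, and their eggs, freed with bleach, were kept in M9 for 3 hr before mRNA was taken from whole embryos. The double-stranded RNA was fed to the mothers, and the tissues of the embryo in which RNAi acted were not measured. The embryos of a culture were pooled.

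The targeted gene was lower in every *ztf-11* KD library. *ztf-11* had 9.41, 10.95, 14.7 and 9.98 CPM (counts relative to the library size scaled by the TMM method) in *ztf-11* KD embryos, against 36.5, 68.4, 31.2 and 40.9 CPM in control embryos. This was a log2 fold change of -1.97 (SE 0.27), with an adjusted p of 0.262 in edgeR's quasi-likelihood test, 4.9e-08 in DESeq2 and an exact two-sided permutation p of 0.029, the smallest that 4 libraries against 4 allow. The libraries held 39343105 to 45609675 counts. Control replicate 2 lay at -116 on the first principal component of all transcripts, against -50.4 to 83.3 for the other 7 libraries. It was the highest or the lowest library for 31.2% and 31.9% of the 14328 transcripts tested. Summed levels of cell type and stage markers differed between libraries too, with no marker past the adjusted threshold. The sums overlapped between conditions except for late embryo and germ line markers. The 7 late embryo markers, which include the muscle gene *unc-54*, had 3321 to 5130 CPM in *ztf-11* KD and 2154 to 3044 CPM in control embryos. The 7 germ line markers had 140 to 156.3 CPM in *ztf-11* KD and 157 to 278.5 CPM in control embryos, so that the nearest libraries were close. The summed level of 6 body wall muscle markers was 4480 to 8704 CPM in *ztf-11* KD embryos and 2773 to 5054 CPM in control embryos. That of 8 early zygotic genes was 60.8 to 83.2 CPM in *ztf-11* KD embryos and 73.1 to 169.7 CPM in control embryos, with the control maximum in replicate 2. At an unadjusted edgeR p under 0.05, 5 of 5 tested body wall muscle and 4 of 6 pharynx markers were higher in *ztf-11* KD. The share of all transcripts was 8.8%. The part of these markers in the *ceh* values was not tested.

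Of the 58 matched *ceh* genes, 45 had a transcript with enough counts to be tested, each with 1 transcript. The other 13 did not pass the filter on low counts. No count fell on *ceh-18*, *ceh-38* or *ceh-100* in any of the 8 libraries. A count of 0 allows up to 0.0655 to 0.0765 CPM per library of the reads that were assigned (3 counts, counting error only), and it sets no limit on reads that the counting may have left unassigned. The genes *ceh-7*, *ceh-8*, *ceh-12*, *ceh-37*, *ceh-43*, *ceh-81*, *ceh-82*, *ceh-84*, *ceh-87* and *ceh-90* had at most 30 counts in any library. Of 47 *ceh* genes with 1 transcript in the deposited files, 41 were tested (87.2%), against 4 of 11 with several (36.4%), namely *ceh-19*, *ceh-27*, *ceh-45* and *ceh-89*. Over all named genes the shares were 29.7% with 1 transcript and 44.5% with several. All named genes were taken, coding or not, so this background is not one of like genes. With 1 transcript, 49.1% of all named genes had 0 counts in all 8 libraries, against 2.13% of the *ceh* genes. With several, these shares were 31.2% and 18.2%. The files can hold fewer transcripts than later annotation gives, as for *ceh-18* and *ceh-63*, each with 1 transcript in the files and 2 in the RefSeq table. How the authors' counting treated reads shared by transcripts of one gene is not given in the sources used here, so a count of 0 or near 0 was not read as absent expression. Its part in these counts was not tested. Left without a usable value were thus *ceh-18*, a POU factor known from gonadal sheath cells, *ceh-37*, an Otx factor of the AWB olfactory neuron, and *ceh-43*, the worm Distal-less.

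The means of the 45 measured genes ran between 0.213 and 313 CPM in *ztf-11* KD embryos and between 0.248 and 363 CPM in control embryos. Levels were compared between genes per kilobase of exon, from the Ensembl annotation of WBcel235, for the 44 genes with an exon length. The gene without one was *ceh-44*, which has no place in this order. It averaged 178 ± 23.8 CPM in *ztf-11* KD and 217 ± 28.2 CPM in control embryos (SD, n = 4 each). In *ztf-11* KD embryos *ceh-20* was highest at 245 ± 30.9 CPM per kb, against 284 ± 26.7 CPM per kb in control embryos (SD, n = 4 each). It was followed by *ceh-32* at 145 ± 28.3 in *ztf-11* KD and 165 ± 34.1 CPM per kb in control embryos, and by *ceh-34* at 128 ± 24.7 in *ztf-11* KD and 127 ± 23.1 CPM per kb in control embryos. These are a Pbx-type cofactor of Hox proteins and a pair of sine oculis-type factors of the head and the pharynx. *ceh-58* came next at 114 ± 31.1 in *ztf-11* KD and 124 ± 18.8 CPM per kb in control embryos, and *ceh-48* had 53.5 ± 7.19 in *ztf-11* KD and 58.1 ± 9.52 CPM per kb in control embryos. The libraries of *ceh-20* lay above those of *ceh-32* and the libraries of *ceh-58* above those of *ceh-48* in *ztf-11* KD embryos, while *ceh-32*, *ceh-34* and *ceh-58* overlapped with each other. Along the whole order, 4 of 43 neighbouring pairs did not overlap in *ztf-11* KD embryos. The lowest gene was *ceh-75*, at 0.298 CPM per kb in *ztf-11* KD embryos, against 0.417 CPM per kb in control embryos. The first 4 genes held the same places in both conditions.

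**Figure D1:**
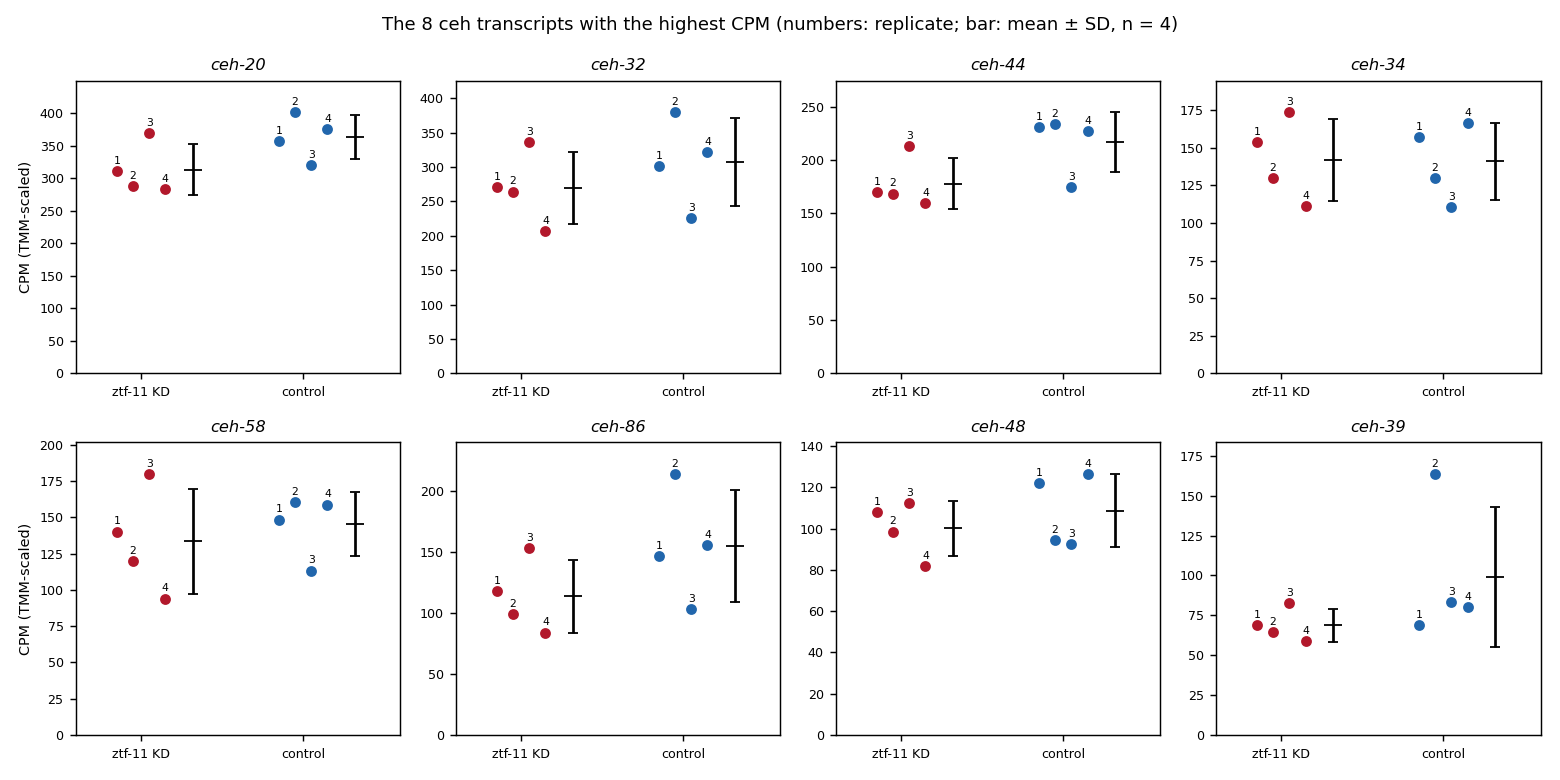
Level of the most abundant *ceh* genes by CPM in each library. Each point is 1 library in CPM on its own axis from 0, with the replicate number beside it, *ztf-11* KD on the left and control on the right, and the bars give the mean and SD of 4 libraries. The points of the conditions overlap for every gene shown, and *ceh-20*, *ceh-32*, *ceh-44*, *ceh-86* and *ceh-39* have their highest point in control replicate 2.

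No *ceh* gene passed the test between *ztf-11* KD and control embryos. With edgeR and an adjusted p under 0.1, none of 45 was called, as was none of all 14328 transcripts tested (0%). DESeq2 called none of 43 *ceh* transcripts with an adjusted p, against 3.21% of all. At an unadjusted p under 0.05, edgeR returned 3 of the 45 (6.67%), against 12.8% of all transcripts, and DESeq2 returned the same 3, against 15.2% of all. With a library left out the number ran between 1 (without *ztf-11* KD replicate 2, 2.17%, against 6.05% of all transcripts) and 8 (without *ztf-11* KD replicate 3, 17.4%, against 17.5%, or without control replicate 3, 17.4%, against 20.4%). Without control replicate 1 it was 6 (13.3%, against 13%). With all libraries, by direction, these were 1 *ceh* gene higher in *ztf-11* KD embryos (2.22%, 8.8% of all) and 2 lower (4.44%, 3.99% of all). The log2 fold changes ran between -1.23 and 0.92 with a median of -0.11, against -0.0088 over all transcripts. They lay above 0 for 17 of the 45 genes (37.8%, against 49.2% of all transcripts) and below 0 for 28 (62.2%, against 50.8%). The median size of a log2 fold change was 0.29 for the *ceh* genes, close to their median standard error of 0.26, and 0.31 for all transcripts. In whole embryos, fewer cells of a type and less RNA per cell cannot be told apart.

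**Figure D2:**
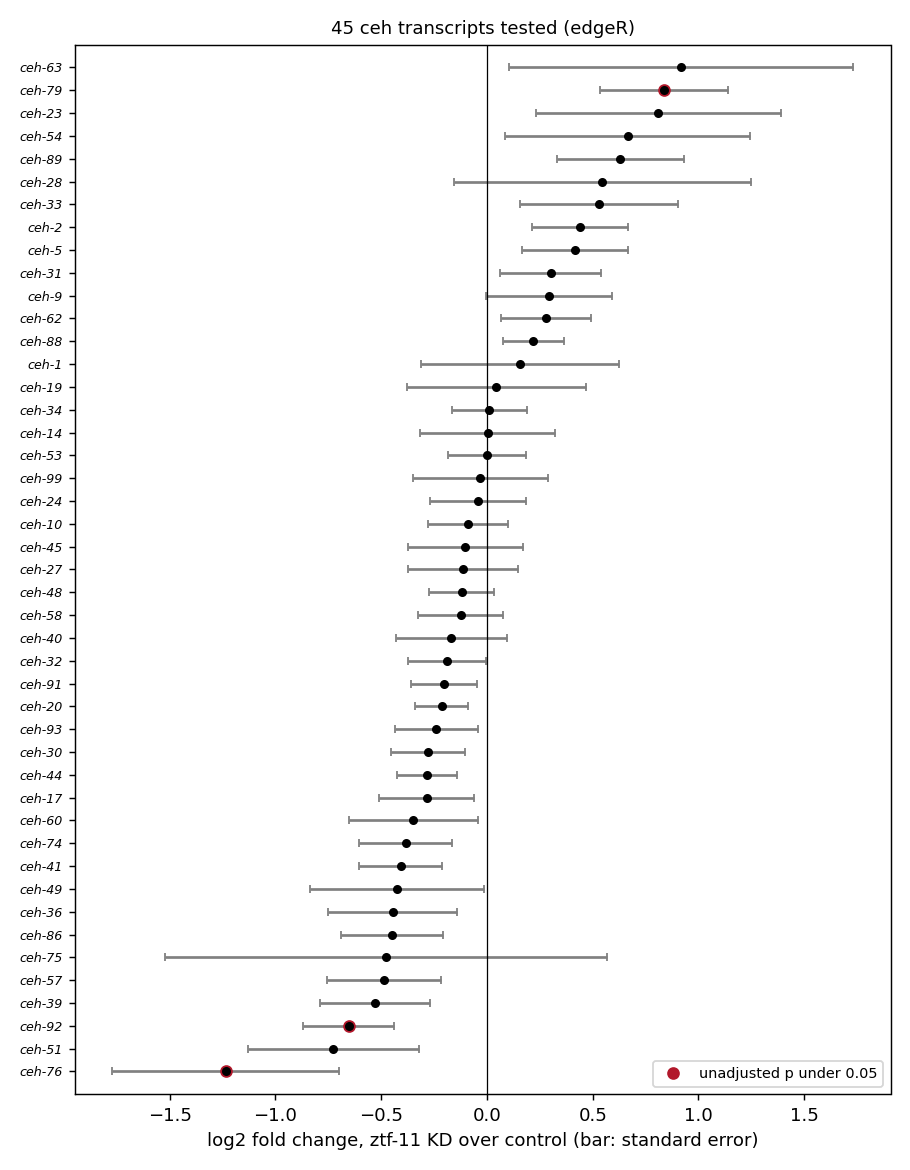
Log2 fold change of each of the 45 *ceh* transcripts tested, *ztf-11* KD over control, ordered from highest to lowest. Points are edgeR estimates from 4 libraries against 4, and bars are 1 standard error. Red rings mark *ceh-79*, *ceh-92* and *ceh-76*, the genes with an unadjusted p under 0.05. The points run between -1.23 for *ceh-76* and 0.92 for *ceh-63*.

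The gene with the lowest p was *ceh-92*, on chromosome III, a homeobox gene for which no role is given here. *ceh-92* had 7.78, 9.56, 7.92 and 10.9 CPM in *ztf-11* KD embryos, against 11.2, 15.5, 17.7 and 12.6 CPM in control embryos. All 4 *ztf-11* KD libraries thus lay below all 4 control libraries, though the highest *ztf-11* KD and the lowest control library were close. It was the only *ceh* gene of the 45 whose groups did not overlap (2.22%), against 6.07% of all transcripts, 2.46% with every *ztf-11* KD library below and 3.61% with every one above. The log2 fold change of *ceh-92* was -0.65 (SE 0.22), with an unadjusted edgeR p of 0.013, an adjusted p of 0.383 and an exact permutation p of 0.029. Over 15 other settings and left-out libraries the value lay between -0.76 and -0.54, with an unadjusted p under 0.05 in each of the 15 and an adjusted p between 0.11 and 0.71.

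Of the genes with higher means in *ztf-11* KD embryos, *ceh-79* on chromosome V had the lowest p. *ceh-79* had 6.53, 8.36, 3.87 and 7.50 CPM in *ztf-11* KD embryos, against 4.10, 2.77, 4.65 and 3.16 CPM in control embryos. Replicate 3 of *ztf-11* KD fell among the controls, and the other 3 libraries lay above all of them. The log2 fold change was 0.84 (SE 0.30), with an unadjusted edgeR p of 0.020 and an adjusted p of 0.383, and the exact permutation p was 0.086. *ceh-76*, also on chromosome V, was rarer, with a mean of 33 counts per library. Its levels were 0.536, 0.283, 0.350 and 0.664 CPM in *ztf-11* KD embryos, against 0.677, 1.68, 1.33 and 0.642 CPM in control embryos. Replicate 4 of *ztf-11* KD fell among the controls, and the other 3 libraries lay below all of them (exact permutation p of 0.057). The log2 fold change of *ceh-76* was -1.23 (SE 0.54), the most negative of the 45, with an unadjusted edgeR p of 0.044 and an adjusted p of 0.387. Without control replicate 2 it was -0.95 (SE 0.58), with an unadjusted edgeR p of 0.135. The unadjusted p stayed under 0.05 for *ceh-79* in 11 and for *ceh-76* in 8 of the 15 other settings.

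**Figure D3:**
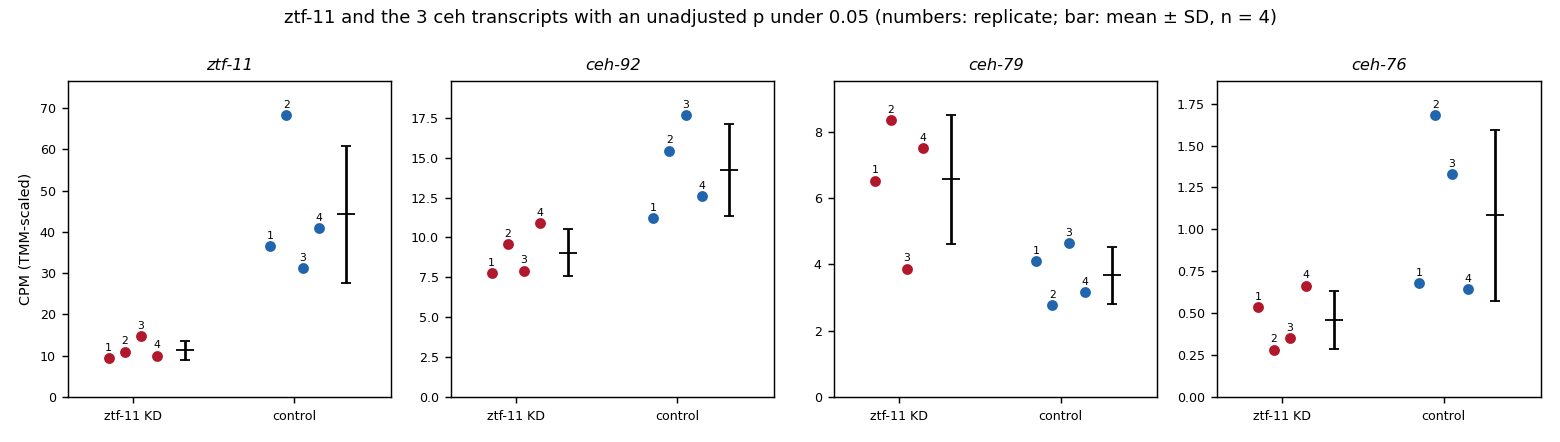
Level in each library of the *ceh* genes with the lowest p and of the targeted gene *ztf-11*. Each point is 1 library in CPM on an axis from 0, with its replicate number, *ztf-11* KD on the left and control on the right, and bars give the mean and SD of 4 libraries. The groups of *ceh-92* do not overlap, and 1 *ztf-11* KD library of *ceh-79*, replicate 3, lies among the controls.

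The Onecut and Cux factors share a cut domain beside the homeodomain, and several of them act redundantly to drive genes common to all neurons. Of 7 listed genes 5 were tested, all 5 had a log2 fold change below 0 (median -0.41), and none had an unadjusted p under 0.05. *ceh-44* had 170, 169, 213 and 160 CPM in *ztf-11* KD embryos, against 231, 234, 175 and 227 CPM in control embryos (log2 fold change -0.28, SE 0.14, adjusted edgeR p of 0.408). Its levels were lower in *ztf-11* KD embryos than the control median in all 4 libraries, and control replicate 3 lay among the *ztf-11* KD libraries. The *ceh-44* locus also encodes a CASP-type product without a homeodomain, and which product its transcript stands for was not tested. *ceh-48*, a pan-neuronal factor, had 108, 98.6, 112 and 81.9 CPM in *ztf-11* KD embryos and 122, 94.5, 92.4 and 126 CPM in control embryos, with a log2 fold change of -0.12 (SE 0.15). *ceh-39*, one of the X-linked signals whose dose is read in sex determination, had 68.8, 64.5, 82.6 and 58.7 CPM in *ztf-11* KD embryos, against 68.9, 163.8, 83.5 and 79.9 CPM in control embryos. Its log2 fold change of -0.53 (SE 0.26) was -0.19 (SE 0.13) without control replicate 2. The remaining members were *ceh-41* (-0.41, SE 0.20) and *ceh-49* (-0.42, SE 0.41), and *ceh-49* had a value of 0.18 (SE 0.22) without that library.

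The PBC class, which holds the worm Pbx proteins, gave log2 fold changes below 0 for 3 of 3 genes (median -0.21), none with an unadjusted p under 0.05. *ceh-20*, the main partner of the worm Hox proteins, had 311, 288, 370 and 284 CPM in *ztf-11* KD embryos, against 358, 401, 320 and 375 CPM in control embryos. Replicate 3 of *ztf-11* KD lay within the control range and the other 3 lay below it, with a log2 fold change of -0.21 (SE 0.12). It was the steadiest of the 44 members with a count in every library, with a ratio of 1.41 between its highest and lowest library. *ceh-40*, which acts beside *ceh-20* in the embryo, averaged 49.7 ± 7.93 CPM in *ztf-11* KD and 55.8 ± 23.8 CPM in control embryos (SD, n = 4 each). Its log2 fold change of -0.17 (SE 0.26) was 0.15 (SE 0.16) without control replicate 2. *ceh-60*, known from the control of yolk protein genes in adults, averaged 4.71 ± 1.78 CPM in *ztf-11* KD and 5.99 ± 1.29 CPM in control embryos (-0.35, SE 0.30).

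The sine oculis-type factors pattern the head and pharynx. All 3 with a *ceh* symbol were measured, 2 with a log2 fold change above 0 and 1 below, and none had an unadjusted p under 0.05. *ceh-34*, needed across the pharyngeal nervous system, had 154, 130, 174 and 111 CPM in *ztf-11* KD embryos, against 157, 130, 110 and 166 CPM in control embryos. The groups covered about the same range, with a log2 fold change of 0.01 (SE 0.18) that turned to -0.01 with DESeq2 and its scaling. *ceh-32*, which acts in head development, had 271, 264, 336 and 207 CPM in *ztf-11* KD embryos, against 302, 379, 226 and 321 CPM in control embryos (-0.19, SE 0.19). *ceh-33*, the neighbour of *ceh-34* on chromosome V, was rare, at 2.22 ± 0.74 CPM in *ztf-11* KD and 1.54 ± 0.459 CPM in control embryos (0.53, SE 0.37). The adjacent genes thus differed in level, with 128 CPM per kb for *ceh-34* and 2.52 CPM per kb for *ceh-33* in *ztf-11* KD embryos, against 127 and 1.75 CPM per kb in control embryos. Pharynx markers summed to 516.9 to 1789 CPM in *ztf-11* KD embryos and 219.9 to 802.2 CPM in control embryos, and their part in the *ceh-34* value was not tested.

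The Otx and other paired-like genes include several known selectors of neuron identity. Of 6 listed, 4 were tested, and all 4 had log2 fold changes below 0 (median -0.19), none with an unadjusted p under 0.05. *ceh-36*, an Otx factor of the AWC and ASE sensory neurons, had 43.2, 38.6, 56.5 and 32.5 CPM in *ztf-11* KD embryos, against 44.9, 96.4, 33.8 and 57.4 CPM in control embryos. Control replicate 2 was the highest library, and the log2 fold change of -0.45 (SE 0.31) was -0.11 (SE 0.23) without it. *ceh-10*, which with *ttx-3* specifies the AIY interneuron, averaged 18.7 ± 3.13 CPM in *ztf-11* KD and 19.9 ± 3.08 CPM in control embryos (-0.09, SE 0.19). *ceh-17*, a Phox2-type factor of the ALA and SIA neurons, averaged 10.9 ± 2.79 CPM in *ztf-11* KD and 13.3 ± 2.16 CPM in control embryos (-0.29, SE 0.23). *ceh-45*, a Goosecoid-type gene, had -0.10 (SE 0.27), and 0.01 (SE 0.27) without control replicate 2. Summed markers of neuronal precursors were 109.7 to 236.9 CPM in *ztf-11* KD and 158.2 to 299.9 CPM in control embryos, and summed pan-neuronal markers 56.5 to 93.7 CPM in *ztf-11* KD and 36.4 to 78.1 CPM in control embryos. All 4 tested precursor markers had log2 fold changes below 0 (median -0.43), and all 6 tested pan-neuronal markers had them above 0 (median 0.45). Only *ngn-1*, a precursor marker, had an unadjusted edgeR p under 0.05 (-0.68, SE 0.26, unadjusted p of 0.027, adjusted p of 0.383). The part of these markers in the values of neuronal homeobox genes was not tested.

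The NK-like and Bar genes split evenly, with 4 of 8 tested above 0 and 4 below (median 0.06), and none had an unadjusted p under 0.05. *ceh-30*, a Bar-type factor that protects male sensory neurons from cell death, had 28.7, 28.7, 38.1 and 23.1 CPM in *ztf-11* KD embryos, against 40.4, 36.5, 33.1 and 33.9 CPM in control embryos (-0.28, SE 0.17). Its neighbour and paralog *ceh-31* on the X chromosome had 24.5, 22.4, 27.4 and 16.6 CPM in *ztf-11* KD embryos, against 23.3, 12.8, 15.4 and 22.2 CPM in control embryos (0.30, SE 0.24). The adjacent Bar genes had estimates of opposite sign, both within the spread between libraries, and the difference between them was not tested. *ceh-27* averaged 21.6 ± 6.56 CPM in *ztf-11* KD and 23.4 ± 6.19 CPM in control embryos (-0.11, SE 0.26), and *ceh-24* 9.45 ± 1.84 CPM in *ztf-11* KD and 9.72 ± 1.97 CPM in control embryos (-0.04, SE 0.23).

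The gene *ceh-51* had the second most negative log2 fold change of the 45. It acts in the MS lineage, a founder of mesoderm, and is transcribed briefly in early embryos. *ceh-51* had 10.97, 10.98, 14.4 and 10.5 CPM in *ztf-11* KD embryos, against 10.1, 40.4, 13.1 and 13.9 CPM in control embryos. Control replicate 2 was 3.26 times the mean of the other controls, and those 3 overlapped with *ztf-11* KD. The log2 fold change was -0.73 (SE 0.40, adjusted edgeR p of 0.433) with all libraries and -0.10 (SE 0.19) without control replicate 2. The summed early zygotic markers were also highest in that library, and all 8 of them had log2 fold changes below 0, none with an unadjusted p under 0.05.

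Of the remaining listed classes, 2 of 5 Antp-like genes and 1 of 2 POU and LIM genes were tested. *ceh-2*, the worm Empty spiracles, had 16.7, 12.5, 15.4 and 14.2 CPM in *ztf-11* KD embryos, against 13.3, 9.08, 7.75 and 13.2 CPM in control embryos (0.44, SE 0.23). *ceh-5*, a Vax-type gene, averaged 14.1 ± 3.48 CPM in *ztf-11* KD and 10.6 ± 2.57 CPM in control embryos (0.42, SE 0.25). Both had log2 fold changes above 0 and unadjusted p over 0.05, and they were 2 of 5 listed Antp-like genes. *ceh-14*, a LIM homeobox gene of the AFD thermosensory neuron, averaged 12.5 ± 2.21 CPM in *ztf-11* KD and 12.4 ± 5.19 CPM in control embryos (0.0036, SE 0.32, turning to -0.01 with DESeq2 and its scaling). Of the 19 genes in none of these lists, 8 had log2 fold changes above 0 and 11 below (median -0.03), and they included all 3 with an unadjusted p under 0.05. The largest log2 fold changes above 0 were those of *ceh-63* (0.92, SE 0.81), known from the DVC interneuron, *ceh-79*, and *ceh-23* (0.81, SE 0.58), a gene of the AIY interneuron. *ceh-63* averaged 0.471 ± 0.237 CPM in *ztf-11* KD and 0.248 ± 0.191 CPM in control embryos, on a mean of 15 counts per library. *ceh-23* had 2.01, 2.61, 1.75 and 1.73 CPM in *ztf-11* KD embryos, against 0.327, 0.545, 2.48 and 1.26 CPM in control embryos, so that control replicates 1, 2 and 4 lay below every *ztf-11* KD library and replicate 3 lay above 3 of them. The log2 fold change of *ceh-23* was 1.49 (SE 0.53, unadjusted edgeR p of 0.019, adjusted p of 0.185) without control replicate 3, and 0.50 (SE 0.52) without control replicate 1.

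The libraries of the conditions overlapped for 44 of the 45 members. The coefficient of variation had a median of 20.4% over *ztf-11* KD and 26.3% over control libraries. The ratio of the highest to the lowest library ran between 1.41 for *ceh-20* and 30.8 for *ceh-63*, with a median of 2.14 over the 44 genes with a count in every library. Control replicate 2 was the highest of 8 libraries for 16 of the 45 genes (35.6%, against 31.2% of all transcripts) and the lowest for 12 (26.7%, against 31.9%). It was at least 2 times the mean of the other controls for *ceh-51*, *ceh-49*, *ceh-36*, *ceh-39* and *ceh-40*, and at most 1/2 of it for *ceh-54*, *ceh-75*, *ceh-23*, *ceh-1*, *ceh-14*, *ceh-28* and *ceh-63*. The shares of all transcripts at these folds are not given here. Of the *ztf-11* KD libraries, replicate 3 was the highest of 8 for 10 genes (22.2%, against 7.5% of all transcripts) and replicate 4 the lowest for 13 (28.9%, against 18.9%). The counts on *ceh* transcripts summed to 1908, 1758, 2253 and 1571 CPM in *ztf-11* KD embryos, against 2096, 2555, 1730 and 2209 CPM in control embryos, so that the groups overlapped through *ztf-11* KD replicate 3 and control replicate 3.

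**Figure D4:**
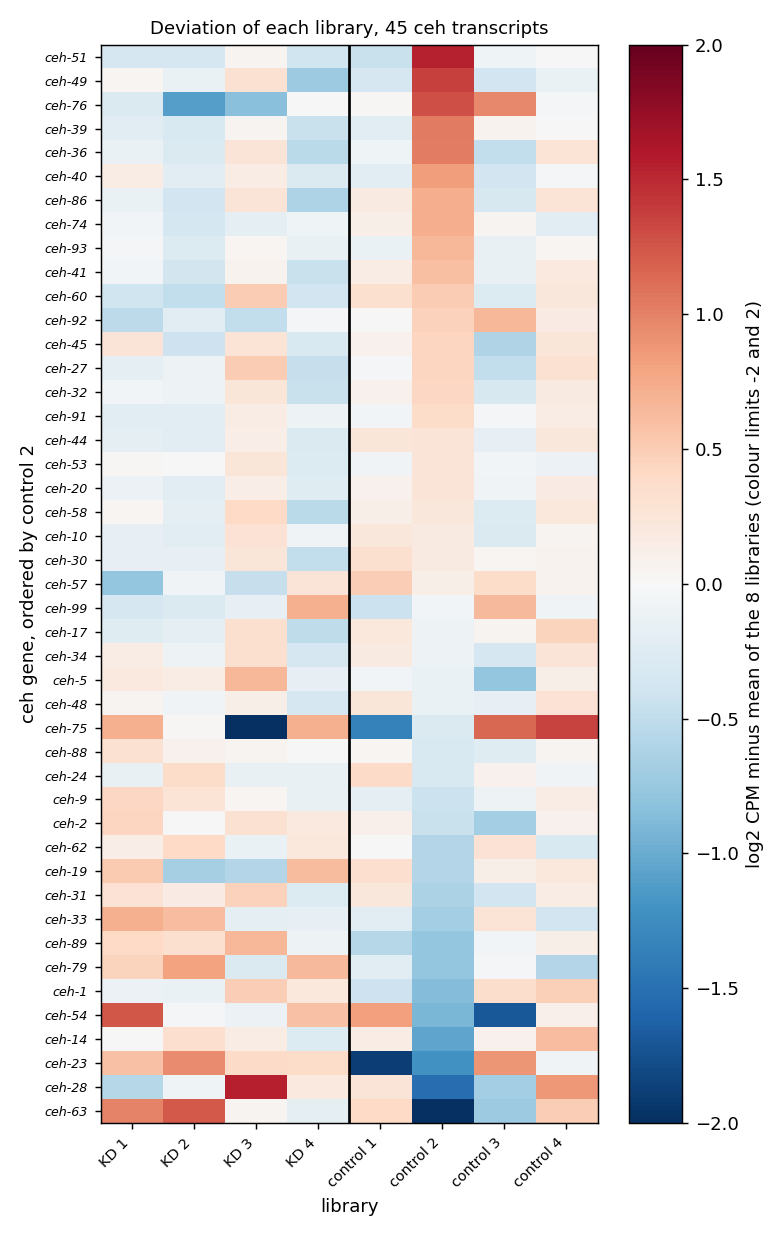
Level of each of the 45 *ceh* transcripts in each library, as log2 CPM minus the mean of its 8 libraries. Rows are genes, columns are the 4 *ztf-11* KD libraries followed by the 4 control libraries, and the color scale is in log2 units. In the column of control replicate 2 *ceh-51* and *ceh-49* are high and *ceh-63* and *ceh-28* are low, and the strongest colors otherwise fall on rare transcripts such as *ceh-75* and *ceh-23*.

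The comparison was repeated without control replicate 2. At an unadjusted p under 0.05, edgeR then returned 2 *ceh* genes of 46 tested (4.35%, against 9.06% of all transcripts), namely *ceh-79* (0.71, SE 0.30) and *ceh-92* (-0.62, SE 0.21). The log2 fold changes lay above 0 for 17 genes and below 0 for 29, with a median of -0.09. The values of *ceh-36*, *ceh-39* and *ceh-51* were nearer to 0, those of *ceh-40*, *ceh-45*, *ceh-49* and *ceh-53* turned from below to above 0, and those of *ceh-1*, *ceh-14*, *ceh-19* and *ceh-34* from above to below 0. The value of *ceh-92* moved by less than its standard error.

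**Figure D5:**
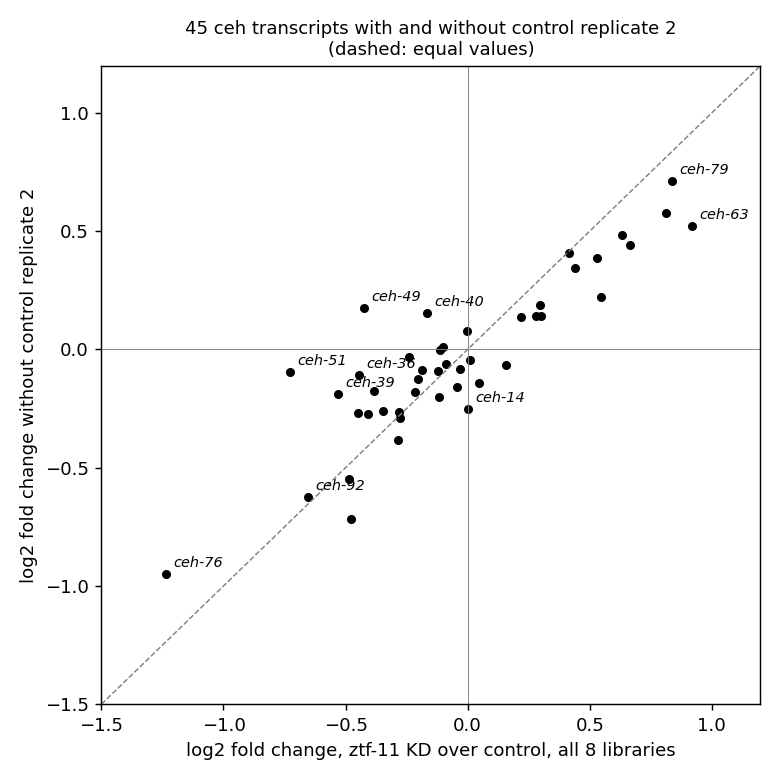
Log2 fold change of each *ceh* transcript, *ztf-11* KD over control, with all 8 libraries on the horizontal axis and without control replicate 2 on the vertical axis. The diagonal marks equal values. *ceh-51*, *ceh-49*, *ceh-36*, *ceh-39* and *ceh-40* lie above the diagonal, while *ceh-92* and *ceh-79* lie near it.

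The measured genes lie on all 6 chromosomes, with 14 on X and 11 on V. On X, 7 genes had log2 fold changes above 0 and 7 below (median -0.08), while 38.6% of all X transcripts tested lay below 0 (median 0.11). On V, 3 lay above 0 and 8 below (median -0.19), against 42.3% of all transcripts of V below 0 (median 0.11). These counts are given as a description, without a test. Exons of 7 tested genes (*ceh-5*, *ceh-19*, *ceh-34*, *ceh-40*, *ceh-60*, *ceh-63* and *ceh-88*) overlap another coding gene in the annotation. The overlapping genes of *ceh-63* and *ceh-88* lie on the same strand, where a strand setting would not separate shared reads. For the others of the 7 the overlapping gene lies on the opposite strand. The strand setting of the counting is not given in the sources used here, so their reads may not be separated either. Exons of 5 more tested genes, among them *ceh-20* and *ceh-32*, overlap a non-coding gene only.

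Homeobox genes without a *ceh* symbol were read beside the *ceh* genes. Of 38 listed, 36 were matched and 25 tested, 8 with log2 fold changes above 0 and 17 below (median -0.08), and none passed the test. The sine oculis-type gene *unc-39*, which acts in mesoderm and in neuronal migration, had 39.04, 34.6, 51.9 and 30.2 CPM in *ztf-11* KD embryos, against 54.3, 79.5, 37.6 and 62.5 CPM in control embryos (-0.59, SE 0.24, unadjusted edgeR p of 0.036, adjusted p of 0.387). *duxl-1* had 157, 139.8, 195.8 and 168.6 CPM in *ztf-11* KD embryos, against 187, 259, 222 and 210.2 CPM in control embryos (-0.41, SE 0.14, unadjusted edgeR p of 0.017, adjusted p of 0.383). Replicates 1 and 3 of *ztf-11* KD overlapped with the controls for *unc-39*, and replicate 3 did for *duxl-1*. Of the other listed genes, the POU factor *unc-86* had a log2 fold change of -0.32 (SE 0.19) and *vab-7*, the worm Even-skipped, 0.02 (SE 0.23). The partners *unc-62* and *ttx-3*, and the factors *pal-1* and *unc-30*, had at most 3 counts in any library and were not tested.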

How the data were processed

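RNA was measured in 8 libraries of whole embryos, 4 *ztf-11* KD and 4 control, grouped by the labels and described there as biological replicates. The authors deposited raw counts per RefSeq transcript, made per the labels with TopHat2, featureCounts and the *ce10* genome (versions, strand setting and the rule for reads over several transcripts are not given in the sources used here). Transcripts were paired with symbols through a RefSeq table of WBcel235 (90.3% of transcripts, 87.7% of counts). In R 4.3.3, edgeR 4.0.16 tested all 14328 transcripts passing filterByExpr (minimum count 10), with TMM scaling, glmQLFit (robust) and glmQLFTest on the condition, and Benjamini-Hochberg adjustment over all of them with a threshold of 0.1. Standard errors were derived from the F statistic. Log2 CPM used a prior count of 2. Single genes were compared by exact two-sided permutation over 70 assignments. The alternatives were DESeq2 1.42.0, its size factors in edgeR, library totals, no filter, a stricter filter (10 counts or more in each library), sums of counts over the transcripts of a gene, a replicate block, and each library left out. In simulated data for this comparison on 14328 transcripts, edgeR recovered 75.3% of transcripts changed 4-fold and 37.4% of those changed 2-fold. Of its 127 calls, 110 were among the 200 transcripts changed. DESeq2 recovered 86% and 51.4%, with 135 of its 215 calls true. In the real libraries edgeR called none of 14328 transcripts at an adjusted p under 0.1, nor *ztf-11* at a log2 fold change of -1.97. The simulated shares are therefore not read as the power of the test in these libraries.

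The members and gene lists were chosen with earlier results of these data known. The genes named are *ztf-11*, members with an unadjusted p under 0.05 or groups that did not overlap, the 5 most abundant, the 3 with the largest log2 fold change in each direction, examples of each subfamily list, and other homeobox genes with an unadjusted p under 0.05 or known to act with a member. The libraries held 39343105 to 45609675 counts, so that the spread between cultures sets the precision of all but rare transcripts. No pair of libraries agreed within counting error. Genome sequence was not used here.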

Additional observations from a re-analysis of the deposited data

Results flagged for a closer look

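Within a condition, 9 of 92 groups of 4 libraries held 1 library far from the other 3 (Dixon's criterion, which flags about 5% of groups by chance). The groups were those of the 45 *ceh* genes and *ztf-11* in each condition. Of the *ztf-11* KD libraries, replicate 2 was high for *ceh-24* (12.2 CPM, nearest library 8.57), replicate 3 was high for *ceh-51* (14.36 CPM, nearest 10.98) and *ceh-60* (7.37 CPM, nearest 3.92), and replicate 4 was high for *ceh-99* (14.07 CPM, nearest 7.69). Of the control libraries, replicate 2 was high for *ceh-39* (163.8 CPM, nearest library 83.5), *ceh-49* (80.56 CPM, nearest 28.4), *ceh-51* (40.39 CPM, nearest 13.9) and *ceh-53* (16.24 CPM, nearest 12.98), and replicate 3 was low for *ceh-44* (174.6 CPM, nearest 227).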

How the results depend on the processing

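No *ceh* transcript passed the adjusted threshold under any setting. An unadjusted p under 0.05 was seen for 3 with all libraries, 6 with library totals alone (13.3%, against 13% of all transcripts), 1 with the replicate block (2.22%, against 4.94%) and 1 to 8 with a library left out (2.17% to 17.4%, against 6.05% to 20.4%), with 1 without *ztf-11* KD replicate 2 and 8 without replicate 3 of either condition. The replicate numbers did not pair the libraries (same-number correlations 0.0052, -0.30, -0.64 and -0.21), and over all transcripts the block gave 708 with an unadjusted p under 0.05, against 1832 without it. The log2 fold change of *ztf-11* passed the threshold in DESeq2 (-1.999) and with no filter (-1.98), and ranged between -2.13 and -1.70 with a library left out, passing without control replicate 2 (-1.70) or 3 (-2.12).

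Of 672 values of members under alternatives, 631 kept their direction and 41 did not, in 13 members, while 32 members kept one direction throughout. The sign turned for *ceh-14* in DESeq2 (-0.012), with its size factors (-0.012), library totals (-0.029), no filter (-0.0080) and counts per gene (-0.013), and for *ceh-34* in the same settings except no filter (-0.012, -0.012, -0.0033 and -0.0042). It turned for *ceh-53* with at least 10 counts in every library (0.0096) and for *ceh-19* with the block (-0.036). With a library left out, the log2 fold change ranged from -0.068 to 0.37 for *ceh-1*, from -0.25 to 0.25 for *ceh-14*, from -0.21 to 0.23 for *ceh-19*, from -0.19 to 0.091 for *ceh-24*, from -0.34 to 0.0027 for *ceh-27*, from -0.13 to 1.05 for *ceh-28*, from -0.11 to 0.10 for *ceh-34*, from -0.31 to 0.15 for *ceh-40*, from -0.29 to 0.012 for *ceh-45*, from -0.61 to 0.18 for *ceh-49*, from -0.090 to 0.078 for *ceh-53*, from -0.30 to 0.0058 for *ceh-58* and from -0.34 to 0.21 for *ceh-99*. The cause of these turns was not tested. Members under about 30 counts per library, such as *ceh-63* and *ceh-75*, are limited by depth as well as by the spread between cultures.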
